A study of Mus musculus with 28 samples.

Results

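Fibroblast and transforming growth factor-beta (TGF-beta) genes were examined in AB1-HA tumors as a set of 10 genes taken by name: Acta2, Tagln, Fap, Postn, Lrrc15, Pdgfra, Pdgfrb, Tgfb1, Tgfb2 and Tgfb3. Each had 1 row in both count tables, which list 55341 genes, and all 10 passed the filter on low counts in every fit. AB1-HA is a mouse mesothelioma line that carries an influenza hemagglutinin gene as a marker antigen. It was grown under the skin of BALB/c.AusBP mice aged 8 to 10 weeks, and 28 whole tumors, each from its own mouse, gave RNA for sequencing 7 days after treatment began. All mice carried the same line, and no engineered allele is named for the hosts. The 4 PBS tumors were the untreated controls. Immune checkpoint blockade (ICB, 5 tumors) was 1 dose of anti-CTLA-4 and 3 doses of anti-PD-L1 at 100 µg each, antibodies that block inhibitory receptors of T cells or their ligand. 5-FU (5 tumors) was 5-fluorouracil at 75 mg/kg, an antimetabolite that disturbs thymidine synthesis. Cisplatin (4 tumors) was given at 6 mg/kg and crosslinks DNA. The combinations were 5-FU+ICB (5 tumors) and Cisplatin+ICB (5 tumors). The study asked how these tumors differ when a chemotherapy is added to ICB. One cell line stands for the disease, and the RNA of its cells and of the host's cells, both from mouse, cannot be separated in a whole tumor.

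Fibroblasts make and remodel the matrix of a tumor. They are known by the PDGF receptors Pdgfra and Pdgfrb, the surface protease Fap, the matrix protein periostin (Postn) and, when TGF-beta has acted on them, by Lrrc15 and the contractile proteins alpha smooth muscle actin (Acta2) and transgelin (Tagln). TGF-beta is made as Tgfb1, Tgfb2 or Tgfb3, held latent in the matrix or on cell surfaces, freed by integrins or proteases, and read by type I and type II receptors that phosphorylate SMAD proteins. In tumors it is known both for driving the contractile state of fibroblasts and for restraining T cells. Mesothelioma cells can themselves express several of these genes.

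Depth was even, with 23541733 to 33950805 counts per tumor and a median of 28797552. Levels are given as counts per 1000000 counts (CPM), scaled by the trimmed mean of M values, and log2 CPM with a prior count of 2. A gene was called changed at an edgeR quasi-likelihood adjusted p under 0.05 (Benjamini-Hochberg over all genes tested) with a log2 fold change beyond 0.5 in either direction. The tumor label was checked against 9 mesothelial markers. Mesothelin (Msln) stood at 271 to 358 CPM in PBS tumors, whereas Wt1 did not exceed 2.78 CPM and Calb2 did not exceed 0.992 CPM in any tumor. Upk3b, Upk1b and Lrrn4 were near 0, and Krt8, Krt18 and Krt19 stayed under 10 CPM in 27 tumors. Replicate 5 of 5-FU+ICB and replicate 1 of Cisplatin+ICB stood apart from their groups, each for several genes. Replicate 5 of 5-FU+ICB had 0.50 CPM of Msln, Krt8, Krt18 and Krt19 at 33.4, 27.2 and 48.9 CPM, and skeletal muscle markers summing to 4277 CPM. Replicate 1 of Cisplatin+ICB had 654 CPM of Msln and endothelial markers summing to 35 CPM, the lowest of all tumors for that sum. For the 10 genes, results that rest on either tumor are mostly given with and without it. Companion lists are given so in part, and single companion genes with all tumors in. In whole tumors, fewer cells of a type and less RNA per cell cannot be told apart.

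Promoters were read for the genes on which the changes turn, to show the sequence beside the values. The windows are the 250 bases before the transcription start in RefSeq (GRCm38.p6), and were read for 6 of the 10 genes. Capitals mark matches on either strand to TATANA, an element found just before many transcription starts, or to a CArG-like element. The CArG box is bound by serum response factor, and the CArG-like form allows 1 of its 6 central bases, which are A or T in the strict box, to be another base. The CArG-like form and TATANA were chosen after the strict CArG box had found no match in these windows. Acta2 (chr19:34255374-34255623, minus strand) is shown because its change was among the largest, Tgfb2 (chr1:186705990-186706239, minus strand) and Postn (chr3:54360857-54361106, plus strand, its second entry) because their levels moved together, and Tgfb1 (chr7:25686752-25687001, plus strand) because it changed with ICB.
Acta2: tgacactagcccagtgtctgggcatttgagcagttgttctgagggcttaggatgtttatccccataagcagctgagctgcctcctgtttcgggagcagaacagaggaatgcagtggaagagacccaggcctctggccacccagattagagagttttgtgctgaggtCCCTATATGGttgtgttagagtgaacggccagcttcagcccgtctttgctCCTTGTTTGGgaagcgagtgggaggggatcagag
Tgfb2: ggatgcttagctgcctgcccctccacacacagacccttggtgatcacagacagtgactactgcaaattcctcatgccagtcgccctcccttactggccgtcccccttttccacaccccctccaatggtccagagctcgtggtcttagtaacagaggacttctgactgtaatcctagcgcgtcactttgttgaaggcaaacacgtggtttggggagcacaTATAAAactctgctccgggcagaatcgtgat
Postn: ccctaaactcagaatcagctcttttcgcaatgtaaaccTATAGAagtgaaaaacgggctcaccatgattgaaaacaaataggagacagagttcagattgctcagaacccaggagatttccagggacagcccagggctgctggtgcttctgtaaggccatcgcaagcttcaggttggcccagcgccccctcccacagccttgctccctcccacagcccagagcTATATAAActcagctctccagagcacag
Tgfb1: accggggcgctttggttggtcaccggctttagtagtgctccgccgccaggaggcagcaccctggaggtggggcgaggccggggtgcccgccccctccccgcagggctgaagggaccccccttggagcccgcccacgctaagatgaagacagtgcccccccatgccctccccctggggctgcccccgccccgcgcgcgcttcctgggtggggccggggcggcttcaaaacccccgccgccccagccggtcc
The Acta2 window held CArG-like elements whose first bases lay at -84 and -34 from the start. Tgfb2 held TATANA at -31, and Postn held it at -212, -28 and -26, the last pair overlapping. The SMAD-binding letters CAGAC, left in lower case, lay at -235 in Acta2 and at -221 and -204 in Tgfb2. Tgfb1 held none of these motifs. Over all 32851 promoter windows of this length, 8.59% held a CArG-like element, 1.47% the strict CArG box, 22.6% TATANA and 42.2% CAGAC, so a match is a description of these letters and no more.

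Against PBS, 2 of the 10 genes were called with ICB (37.8% of all genes tested were called), 2 with 5-FU (23% of all genes), 0 with Cisplatin (0% of all genes), 5 with 5-FU+ICB (40.7% of all genes) and 1 with Cisplatin+ICB (6.1% of all genes). The genes called with 5-FU and with 5-FU+ICB were all higher, as were 9.98% and 21.9% of all genes, and the gene called with Cisplatin+ICB was lower, as were 1.4% of all genes. The share called among the 10 genes was therefore below or near that of all genes in the ICB and 5-FU comparisons, and the count alone says nothing particular about them. The genes called were not the same in each comparison, and this is no test between treatments. Tgfb1 rose and Tgfb3 fell with ICB, Pdgfra and Tgfb2 rose with 5-FU, and Acta2, Tagln, Pdgfra, Tgfb1 and Tgfb2 rose with 5-FU+ICB. With Cisplatin+ICB, Tgfb3 fell. All 5 comparisons share the same PBS tumors. Across the 6 groups at once, 6 of the 10 genes differed (31% of all genes did), a count that was 2 with the replicate block, 2 without replicate 5 of 5-FU+ICB and 7 without both tumors that stood apart. The share of all genes is not given for these other settings, so the changed counts are not read as particular to the 10 genes. The 6 were Tgfb3 (adjusted p = 0.000754), Acta2 (0.00152), Tagln (0.00571), Tgfb2 (0.0268), Tgfb1 (0.0424) and Postn (0.0487) by the edgeR quasi-likelihood F-test with Benjamini-Hochberg adjustment. Lrrc15 (0.0687), Pdgfra (0.135), Fap (0.351) and Pdgfrb (0.709) did not pass.

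**Figure D1:**
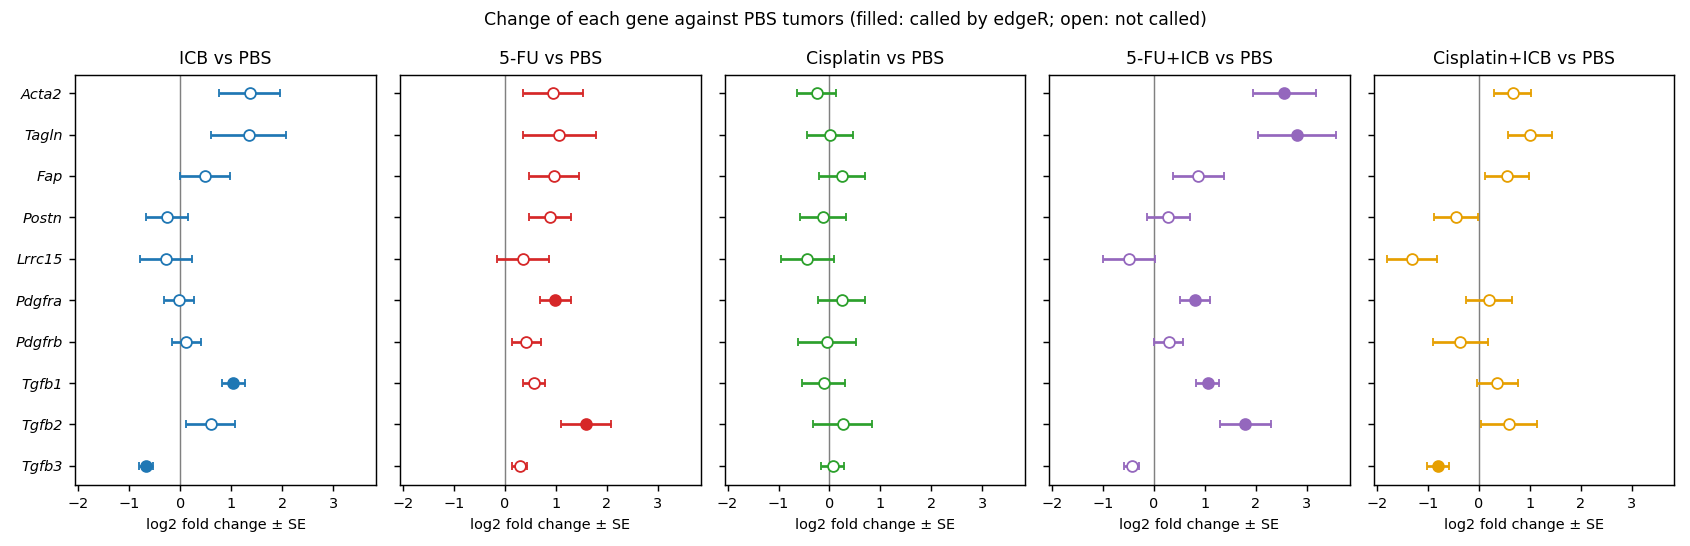
Log2 fold change against PBS tumors with its standard error (horizontal axis) for each of the 10 genes (vertical axis), one panel per treatment. Filled points were called by edgeR: 2 with ICB, 2 with 5-FU, none with Cisplatin, 5 with 5-FU+ICB and 1 with Cisplatin+ICB.

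Of the TGF-beta ligands, Tgfb1 (chr7:25687002-25705077, plus strand, GRCm38, as are all gene positions here) encodes the form that leukocytes and platelets release in quantity. Its level was 76.9, 51.3, 108 and 97.2 CPM in the 4 PBS tumors, and 129, 199, 186, 127 and 190 CPM in the 5 ICB tumors. The 5-FU tumors held 103, 115, 170, 100.0 and 118 CPM, and the 5-FU+ICB tumors 211, 122, 191, 147 and 167 CPM. Cisplatin tumors held 88.1, 71.2, 85.2 and 62.7 CPM, and Cisplatin+ICB tumors 18, 128, 88.2, 151 and 146 CPM. Every ICB tumor and every 5-FU+ICB tumor thus lay above every PBS tumor, and the 5-FU tumors overlapped with PBS. Of all genes, 16.8% were likewise higher in every ICB tumor than in every PBS tumor, and 11.4% in every 5-FU+ICB tumor. Tgfb1 rose with ICB by a log2 fold change of 1.04 (SE 0.22, edgeR adjusted p = 0.00199) and with 5-FU+ICB by 1.05 (SE 0.22, edgeR adjusted p = 0.00204). With 5-FU its log2 fold change was 0.57 (SE 0.22, edgeR adjusted p = 0.0627), which DESeq2 called at an adjusted p of 0.0393 (it called 23.1% of all genes). With Cisplatin+ICB it was 0.37 (SE 0.41, edgeR adjusted p = 0.679), and it became 0.72 (SE 0.22, edgeR adjusted p = 0.0181) without replicate 1, where 35.3% of all genes were called.

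Tgfb3 (chr12:86056745-86079041, minus strand) encodes the isoform best known from palate and lung development, and it moved the other way. PBS tumors held 44.7, 35.3, 51.6 and 56.8 CPM, and ICB tumors 34.9, 26.7, 26.6, 29.9 and 25.9 CPM. The 5-FU tumors were at 58.8, 50.6, 59.2, 68.4 and 47.9 CPM, and the 5-FU+ICB tumors at 31.0, 42.5, 39.1, 29.1 and 28.5 CPM. Cisplatin tumors had 53.6, 44.5, 53.5 and 44.2 CPM, and Cisplatin+ICB tumors 14.7, 23.9, 38.2, 31.6 and 26.2 CPM. All ICB tumors lay below all PBS tumors, all 5-FU+ICB tumors below all 5-FU tumors, and all Cisplatin+ICB tumors below all Cisplatin tumors. Of all genes, 19.6%, 0.636% and 2.07% were lower without overlap in these comparisons. Tgfb3 fell with ICB by 0.67 on the log2 scale (SE 0.14, edgeR adjusted p = 0.00202) and with Cisplatin+ICB, where replicate 3 lay above the lowest PBS tumor, by 0.79 (SE 0.22, edgeR adjusted p = 0.0399). The Cisplatin+ICB call was lost in 11 of 17 alternatives, with edgeR adjusted p up to 0.192. With 5-FU+ICB the log2 fold change was -0.44 (SE 0.14, edgeR adjusted p = 0.0207), which passed the p but not the fold threshold. Neither chemotherapy alone moved it past the test, with 0.29 (SE 0.15, edgeR adjusted p = 0.142) for 5-FU and 0.06 (SE 0.23, edgeR adjusted p = 1) for Cisplatin. Without replicate 1 of Cisplatin+ICB, the log2 fold change against PBS was -0.57 (SE 0.15, edgeR adjusted p = 0.0086).

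**Figure D2:**
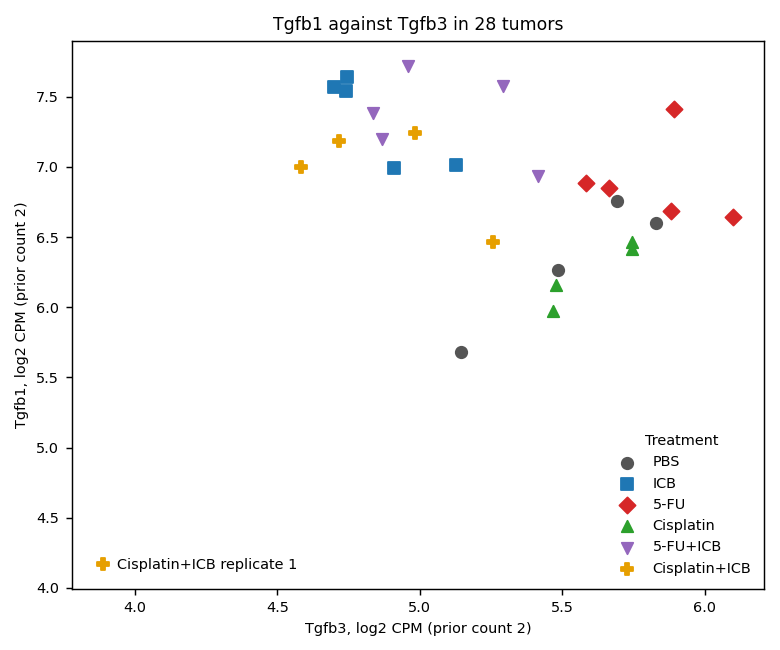
Log2 CPM of Tgfb1 (vertical axis) against Tgfb3 (horizontal axis), 1 point per tumor, with the treatment as color and shape. All 5 ICB tumors lie to the left of and above all PBS tumors, the 5-FU+ICB tumors lie to the left of all 5-FU tumors, and replicate 1 of Cisplatin+ICB lies low on both axes.

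The log2 ratio of Tgfb1 to Tgfb3 within a tumor does not depend on the scaling of that library. It was chosen after the values of both genes had been seen, so it is a description with no test. It was 0.79 ± 0.21 (SD, n = 4) in PBS tumors, 0.64 ± 0.09 (SD, n = 4) in Cisplatin tumors and 1.07 ± 0.39 (SD, n = 5) in 5-FU tumors. In ICB tumors it was 2.51 ± 0.48 (SD, n = 5) and in 5-FU+ICB tumors 2.29 ± 0.47 (SD, n = 5), while Cisplatin+ICB tumors spread from 0.29 to 2.47. The lowest ICB tumor, at 1.89, stood above the highest 5-FU tumor, at 1.52, and the lowest 5-FU+ICB tumor was also at 1.52. On the level scale per length (CPM per kilobase of annotated exon), PBS tumors held 16.5 ± 4.94 of Tgfb1, 13.9 ± 2.75 of Tgfb3 and 0.299 ± 0.0687 of Tgfb2 (SD, n = 4). Tgfb1 made up 53.2% of the 3 isoforms per length in PBS tumors, 50.6% with Cisplatin and 57.2% with 5-FU. It made up 78.0% with ICB, 74.5% with 5-FU+ICB and 66.8% with Cisplatin+ICB, as group means.

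Tgfb2 (chr1:186622792-186705989, minus strand), the isoform whose latent form has no integrin-binding RGD motif, was the lowest of the 3 isoforms per length in every group mean. It stood at 1.62, 1.22, 2.10 and 1.99 CPM in PBS tumors, and at 5.15, 2.59, 5.25, 6.23 and 6.60 CPM in 5-FU tumors. The 5-FU+ICB tumors held 7.48, 2.98, 3.65, 4.98 and 10.2 CPM, and the ICB tumors 1.60, 2.86, 4.93, 0.548 and 2.91 CPM. Cisplatin tumors held 2.62, 1.75, 2.01 and 1.90 CPM, and Cisplatin+ICB tumors 0.424, 3.16, 2.59, 1.89 and 4.89 CPM. Every tumor given 5-FU, with or without ICB, lay above every PBS tumor, and ICB tumors reached both below and above the PBS range. Of all genes, 10.4% were higher without overlap in 5-FU than in PBS tumors, and 11.4% in 5-FU+ICB than in PBS tumors. Tgfb2 rose with 5-FU by a log2 fold change of 1.59 (SE 0.49, edgeR adjusted p = 0.0258), a call that 5 of 17 alternatives lost, and with 5-FU+ICB by 1.79 (SE 0.49, edgeR adjusted p = 0.00816). The latter was 1.49 (SE 0.48, edgeR adjusted p = 0.0208) without replicate 5. With ICB alone the log2 fold change was 0.60 (SE 0.48, edgeR adjusted p = 0.319).

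The rest of the TGF-beta pathway was followed through 5 receptor genes, 12 genes of latency and activation, 5 SMAD genes and 12 target genes, all tested. Of the receptors, 3 rose with ICB, 4 with 5-FU, 4 with 5-FU+ICB and 1 with Cisplatin+ICB, and none fell. Of all genes, 37.8%, 23%, 40.7% and 6.1% were called in these comparisons. Acvrl1 and Eng, the type I receptor and the co-receptor known best from endothelial cells, rose most. Acvrl1 rose by a log2 fold change of 2.55 (SE 0.39) with ICB, 1.57 (SE 0.37) with 5-FU, 2.25 (SE 0.38) with 5-FU+ICB and 1.74 (SE 0.38) with Cisplatin+ICB. Eng rose by 1.81 (SE 0.38), 1.32 (SE 0.37) and 2.02 (SE 0.38) with ICB, 5-FU and 5-FU+ICB. Tgfbr2, the ligand-binding type II receptor, rose by 0.85, 0.93 and 0.97 in the same 3 groups. The receptors' median log2 fold change was 0.85 with ICB, 0.97 with 5-FU and 0.97 with 5-FU+ICB, where the median of all genes was -0.03, -0.01 and -0.04. Of 5 endothelial markers, 2 rose with ICB (37.8% of all genes were called), 2 with 5-FU (23% of all genes) and 5 with 5-FU+ICB (40.7% of all genes), and their summed level was 69.5 to 130 CPM in PBS tumors, 134 to 272 CPM with ICB, 133 to 305 CPM with 5-FU and 158 to 639 CPM with 5-FU+ICB. With Cisplatin+ICB, 0 of the 5 were called, their median log2 fold change was 0.17, and their summed level was 35 to 165 CPM. With 5-FU+ICB their median was 1.62. Without replicate 5 of that group it was 1.08, and 4 were called higher (36.8% of all genes were called). Without replicate 1 of Cisplatin+ICB, 1 was called higher in that group (35.3% of all genes were called). The part of endothelial cells in the receptors' result was not tested.

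Among the latency and activation genes, Nrros, which tethers latent TGF-beta on myeloid cells, rose with ICB (log2 fold change 1.74, SE 0.37), with 5-FU+ICB (1.59, SE 0.36) and with Cisplatin+ICB (1.14, SE 0.28). Lrrc32, which does so on regulatory T cells, platelets and endothelium, rose with 5-FU (1.85, SE 0.44) and 5-FU+ICB (1.92, SE 0.45). With ICB the convertase Furin rose by 0.92 (SE 0.26) and the activating integrin subunit Itgb8 fell by 0.68 (SE 0.27). No other of the 12 was called against PBS with all tumors in, and none of the 5 SMAD genes was called in any comparison. SMAD medians lay between -0.24 and -0.02 on the log2 scale against PBS, close to all genes. Of 12 target genes, 3 rose and 1 fell with ICB, 4 rose with 5-FU and 6 rose and 1 fell with 5-FU+ICB, where 37.8%, 23% and 40.7% of all genes were called. Itga11, a collagen-binding integrin of fibroblasts, rose in each of these by 2.59 (SE 0.76), 2.66 (SE 0.76) and 2.88 (SE 0.77). The cell cycle inhibitor Cdkn2b rose with ICB by 2.37 (SE 0.71) and with 5-FU+ICB by 2.34 (SE 0.71). Pmepa1, a feedback inhibitor of TGF-beta signaling, fell with ICB by 1.14 (SE 0.35) and with 5-FU+ICB by 0.96 (SE 0.35). None of these pathway genes was called with Cisplatin, where 0% of all genes were called. Without replicate 1 of Cisplatin+ICB, that group had 3 receptors and 4 targets called higher and 1 target called lower against PBS, in place of 1 receptor and 0 targets, while the share of all genes called went from 6.1% to 35.3%. Without replicate 5 of 5-FU+ICB, 5 targets were called higher and 1 lower in that group, where 36.8% of all genes were called. Of the latency and activation genes, 4 were then called higher there.

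The PDGF receptors mark fibroblasts (Pdgfra) and fibroblasts with pericytes (Pdgfrb). Pdgfra (chr5:75152292-75198215, plus strand) stood at 91.2, 54.3, 121 and 141 CPM in PBS tumors, and at 189, 111, 210, 195 and 283 CPM in 5-FU tumors. The 5-FU+ICB tumors held 251, 137, 166, 204 and 106 CPM, and the ICB tumors 101, 119, 118, 62.8 and 86.1 CPM. Cisplatin tumors held 174, 80.1, 138 and 86.8 CPM, and Cisplatin+ICB tumors 18.7, 111, 154, 147 and 151 CPM. In all, 4 of the 5-FU tumors exceeded the highest PBS tumor and 1 lay inside the PBS range, so the groups overlapped. Pdgfra rose with 5-FU by a log2 fold change of 0.99 (SE 0.30, edgeR adjusted p = 0.0258), a call that 4 of 17 alternatives lost, and with 5-FU+ICB by 0.80 (SE 0.30, edgeR adjusted p = 0.0379). With ICB alone it was -0.02 (SE 0.30, edgeR adjusted p = 0.957). The 5-FU+ICB call was lost in 10 of 17 alternatives, with edgeR adjusted p up to 0.151. These were no filter, the replicate block, the compared groups alone, all 6 groups joined, and leaving out PBS replicate 1, 2 or 3 or 5-FU+ICB replicate 1, 3 or 4.

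Pdgfrb (chr18:61045150-61085061, plus strand) was called in no comparison. It ranged from 27.5 to 122 CPM in PBS tumors, 58.1 to 92.9 CPM with ICB, 69.1 to 123 CPM with 5-FU and 33.8 to 90.5 CPM with Cisplatin. The 5-FU+ICB tumors ranged from 69.6 to 98.1 CPM. The Cisplatin+ICB tumors held 4.72, 63.8, 67.3, 74.0 and 60.7 CPM, so replicate 1 was the lowest tumor of all. The PDGF ligands split. Pdgfd, a ligand of Pdgfrb, rose with ICB (log2 fold change 1.22, SE 0.39), 5-FU (1.08, SE 0.39) and 5-FU+ICB (1.76, SE 0.39). Pdgfb, which endothelial cells use to recruit pericytes, rose with ICB (0.87, SE 0.29) and 5-FU+ICB (0.79, SE 0.29). Pdgfa, a ligand of Pdgfra, fell with ICB by 0.75 (SE 0.23) and with 5-FU+ICB by 0.94 (SE 0.23), and Pdgfc was not called. Of all genes, 37.8% were called with ICB, 23% with 5-FU and 40.7% with 5-FU+ICB. Without replicate 5 of 5-FU+ICB, 1 ligand was called higher there in place of 2, and 36.8% of all genes were called.

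Of the fibroblast and matrix genes, none of Fap, Postn and Lrrc15 was called against PBS in any of the 5 treatments. Postn (chr3:54361109-54391037, plus strand), the matrix protein periostin, stood at 213, 117, 209 and 262 CPM in PBS tumors. It was at 328, 161, 426, 474 and 432 CPM in 5-FU tumors, and at 89.5, 222, 310, 43.6 and 146 CPM in ICB tumors. The 5-FU+ICB tumors held 250, 217, 279, 248 and 195 CPM. Cisplatin tumors held 202, 167, 193 and 170 CPM, and Cisplatin+ICB tumors 63.4, 138, 188, 138 and 198 CPM. Of the 5-FU tumors, 4 stood above all PBS tumors and the remaining one inside their range, and the log2 fold change of 0.88 (SE 0.42) did not pass (edgeR adjusted p = 0.122). Postn nonetheless differed across the 6 groups, as given above, with the 5-FU mean highest. The lowest mean was that of Cisplatin+ICB on the CPM scale (145, against 162 for ICB) and that of ICB on the log2 CPM scale (7.04, against 7.08).

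Lrrc15 (chr16:30269302-30283256, minus strand) marks the TGF-beta-driven myofibroblasts of tumors. It ranged from 7.80 to 16.2 CPM in PBS tumors and from 3.13 to 7.11 CPM in Cisplatin+ICB tumors, so that these groups did not overlap (4.43% of all genes were lower without overlap). The log2 fold change was -1.30 (SE 0.49) and did not pass (edgeR adjusted p = 0.116). It ranged from 2.01 to 21.1 CPM with ICB, 7.94 to 24.5 CPM with 5-FU, 6.99 to 11.8 CPM with Cisplatin and 5.71 to 15.4 CPM with 5-FU+ICB. Fap (chr2:62500943-62574075, minus strand), the fibroblast activation protein, was low throughout. It held 3.61 to 6.44 CPM in PBS tumors, 1.43 to 13.3 CPM with ICB, 4.85 to 13.6 CPM with 5-FU, 4.30 to 6.69 CPM with Cisplatin, 3.75 to 11.8 CPM with 5-FU+ICB and 4.83 to 9.44 CPM with Cisplatin+ICB. Its log2 fold change was 0.96 (SE 0.50, edgeR adjusted p = 0.151) with 5-FU and 0.87 (SE 0.49, edgeR adjusted p = 0.157) with 5-FU+ICB.

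A list of other fibroblast genes was read beside these. Of 15 listed, 14 were tested, and 3 rose and 1 fell with ICB, 7 rose with 5-FU, 7 rose and 1 fell with 5-FU+ICB and 1 rose and 1 fell with Cisplatin+ICB. Of all genes, 37.8%, 23%, 40.7% and 6.1% were called in these comparisons. Without replicate 1 of Cisplatin+ICB, 3 were called higher and 1 lower in that group, where 35.3% of all genes were called. The median log2 fold change of the list was 0.38 with ICB, 1.27 with 5-FU and 0.89 with 5-FU+ICB. Clec3b, a gene of quiescent adventitial fibroblasts, rose by 2.44 (SE 0.75) with ICB, 3.03 (SE 0.77) with 5-FU and 3.15 (SE 0.77) with 5-FU+ICB. Cxcl12, a chemokine that keeps CXCR4-bearing cells in stroma, rose by 2.11 (SE 0.63), 2.62 (SE 0.64) and 3.42 (SE 0.67), and by 2.04 (SE 0.58) with Cisplatin+ICB. Pi16, another adventitial gene, rose by 2.41 (SE 0.50) with 5-FU. Twist1, a mesenchymal transcription factor that tumor cells can also express, fell by 0.92 (SE 0.35) with ICB and by 1.00 (SE 0.35) with 5-FU+ICB. Adipocyte markers, which the fatty tissue around a skin tumor would carry, summed to 9.58 to 20.2 CPM in PBS tumors, 4.71 to 140 CPM in 5-FU tumors and 2.95 to 120.3 CPM in 5-FU+ICB tumors. Their sum was 0.567 to 76.1 CPM with ICB, 15.5 to 34.4 CPM with Cisplatin and 22.6 to 111 CPM with Cisplatin+ICB. Of 5, 1 was called higher with 5-FU+ICB and 0 with 5-FU, with median log2 fold changes of 2.07 and 2.53. Without replicate 5 of 5-FU+ICB, 0 were called there and the median was 1.84 (36.8% of all genes were called). The part of adipocytes in the fibroblast result was not tested.

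**Figure D3:**
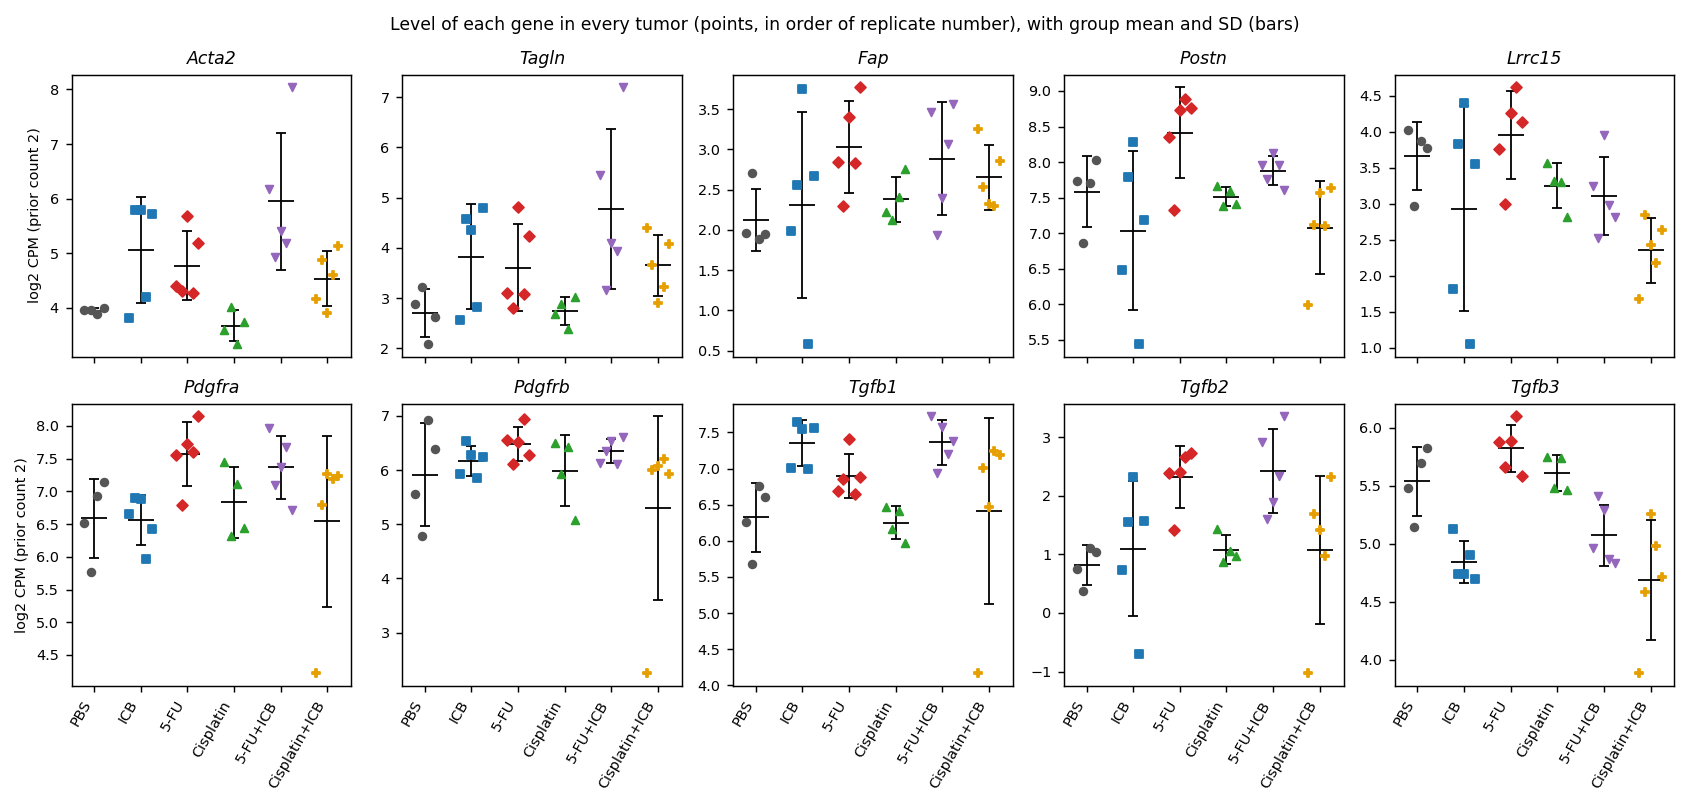
Log2 CPM (prior count 2) of each of the 10 genes in every tumor, one panel per gene, with the 6 groups along the horizontal axis and bars for the group mean and SD. Replicate 5 of 5-FU+ICB is the highest point for Acta2 and Tagln, and replicate 1 of Cisplatin+ICB the lowest for Pdgfra, Pdgfrb and Tgfb1.

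The contractile genes gave the largest changes of the 10 against PBS with 5-FU+ICB and with ICB, but not with 5-FU. Acta2 (chr19:34241090-34255590, minus strand) was almost constant in PBS tumors, at 15.5, 15.6, 14.7 and 15.8 CPM. The 5-FU+ICB tumors held 72.4, 30.6, 42.3, 36.4 and 263 CPM, and every one lay above all PBS tumors. The ICB tumors were split between low and high values, at 14, 55.5, 55.0, 18.2 and 52.3 CPM, and the 5-FU tumors held 21.1, 19.8, 51.3, 19.2 and 36.4 CPM. Cisplatin tumors held 12, 16.2, 10.1 and 13.3 CPM, and Cisplatin+ICB tumors 17.8, 29.3, 14.9, 24.3 and 35 CPM. All 5-FU tumors also lay above all PBS tumors, and their log2 fold change of 0.95 (SE 0.59) did not pass (edgeR adjusted p = 0.23). Of all genes, 11.4% were likewise higher without overlap in 5-FU+ICB than in PBS tumors, and 10.4% in 5-FU than in PBS tumors. Acta2 rose with 5-FU+ICB by a log2 fold change of 2.56 (SE 0.62, edgeR adjusted p = 0.00415). Without replicate 5, where 36.8% of all genes were called, it was 1.57 (SE 0.44, edgeR adjusted p = 0.0104). With ICB alone it was 1.36 (SE 0.59, edgeR adjusted p = 0.0733), which DESeq2 called at an adjusted p of 0.0401 (it called 31.2% of all genes).

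Tagln (chr9:45929619-45936058, minus strand) encodes an actin-binding protein of smooth muscle and myofibroblasts. It held 7.26, 9.19, 4.19 and 6.11 CPM in PBS tumors, and 43.8, 8.84, 17.0, 15.3 and 146 CPM in 5-FU+ICB tumors. Replicate 2 of 5-FU+ICB thus lay inside the PBS range and the other 4 above it. The ICB tumors held 5.83, 23.6, 20.4, 7.04 and 27.5 CPM, and the 5-FU tumors 8.55, 6.87, 27.9, 8.43 and 18.8 CPM. Cisplatin tumors held 6.37, 7.28, 5.17 and 8.03 CPM, and Cisplatin+ICB tumors 20.9, 12.6, 7.43, 9.28 and 16.7 CPM. The ICB tumors that were low for Acta2, replicates 1 and 4, were the low ones for Tagln too, as were replicates 1, 2 and 4 of 5-FU for both genes. Tagln rose with 5-FU+ICB by a log2 fold change of 2.80 (SE 0.77, edgeR adjusted p = 0.00818), and by 1.66 (SE 0.59, edgeR adjusted p = 0.0327) without replicate 5. Its log2 fold change was 1.34 (SE 0.73, edgeR adjusted p = 0.145) with ICB and 1.07 (SE 0.72, edgeR adjusted p = 0.272) with 5-FU.

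Acta2 shares long stretches with other actin genes, and the authors' counting divides reads that match several, so its counts are uncertain where another actin is abundant. Skeletal muscle actin (Acta1) reached 2204 CPM in replicate 5 of 5-FU+ICB. In the 5 ICB tumors, Acta1 was 7.46, 130, 1258, 0.030 and 20.8 CPM, beside 14, 55.5, 55.0, 18.2 and 52.3 CPM of Acta2. The part of shared reads in the Acta2 result was not tested.

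A wider list of contractile genes was read beside these. Of 16 genes, 15 were tested, and 4 rose and 2 fell with ICB, 3 rose with 5-FU, 9 rose and 2 fell with 5-FU+ICB and 0 were called with Cisplatin or Cisplatin+ICB. Of all genes, 37.8%, 23% and 40.7% were called with ICB, 5-FU and 5-FU+ICB, and 0% and 6.1% with Cisplatin and Cisplatin+ICB. Their median log2 fold change was 0.71 with ICB, 0.73 with 5-FU and 1.07 with 5-FU+ICB. Smooth muscle myosin Myh11 rose by 2.38 (SE 0.72) with ICB, 2.91 (SE 0.73) with 5-FU and 4.18 (SE 0.77) with 5-FU+ICB. Calponin Cnn1 rose by 3.85 (SE 0.97) and leiomodin Lmod1 by 3.40 (SE 0.89) with 5-FU+ICB. The tropomyosin Tpm1 and the actin regulator Cald1, which many non-muscle cells also use, fell with ICB by 0.83 (SE 0.21) and 0.75 (SE 0.15). Without replicate 5 of 5-FU+ICB, 9 contractile genes were called higher and 1 lower there. Without replicate 1 of Cisplatin+ICB, 5 were called higher and 2 lower in that group, while the share of all genes called went from 6.1% to 35.3%.

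Pericytes share Acta2 and Pdgfrb with fibroblasts. Of 8 pericyte markers, 1 rose with ICB (37.8% of all genes were called), 1 with 5-FU (23% of all genes) and 5 with 5-FU+ICB (40.7% of all genes), or 3 there without replicate 5 (36.8% of all genes). They summed to 93.2 to 143 CPM in PBS tumors, 96.6 to 214 CPM with ICB, 118 to 235 CPM with 5-FU and 131 to 531 CPM with 5-FU+ICB. Cisplatin and Cisplatin+ICB tumors summed to 78.5 to 102 CPM and 81.3 to 124 CPM. Skeletal muscle markers, which the body wall beneath a skin tumor would carry, summed to 95.4 to 168 CPM in PBS tumors, 7.94 to 1423 CPM with 5-FU and 3.10 to 4277 CPM with 5-FU+ICB. Their sum was 4.08 to 3064 CPM with ICB, 96.8 to 327 CPM with Cisplatin and 46.3 to 898 CPM with Cisplatin+ICB. The part of either cell type in the Acta2 and Tagln results was not tested.

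Adding a chemotherapy to ICB was compared with each agent alone. No member was called by edgeR between 5-FU+ICB and ICB (0.229% of all genes), 5-FU+ICB and 5-FU (0.0112%), Cisplatin+ICB and ICB (0%), or Cisplatin+ICB and Cisplatin (0%). At an unadjusted p under 0.05 edgeR found 1947, 2983, 2839 and 2530 genes in these comparisons, and DESeq2 called 319, 497, 56 and 767. Tgfb3 was the gene of the 10 with the clearest values. It stood lower in all 5-FU+ICB tumors than in all 5-FU tumors, by a log2 fold change of -0.73 (SE 0.14, edgeR adjusted p = 0.0807, unadjusted p = 4.78e-05), and DESeq2 called it at an adjusted p of 0.000364. Against Cisplatin, Cisplatin+ICB gave -0.85 (SE 0.22, edgeR adjusted p = 0.0891), which DESeq2 called at an adjusted p of 0.0181. In these comparisons DESeq2 called 2.55% and 3.97% of all genes. Without replicate 1 of Cisplatin+ICB, edgeR called Tgfb3 at -0.65 (SE 0.15, adjusted p = 0.0145) and Tgfb1 at 0.81 (SE 0.22, adjusted p = 0.0291) against Cisplatin, where 11.9% of all genes were called. Between 5-FU+ICB and ICB, the log2 fold changes were 1.20 (SE 0.55) for Acta2, 1.46 (SE 0.67) for Tagln, 1.19 (SE 0.45) for Tgfb2 and 0.82 (SE 0.28) for Pdgfra, with edgeR adjusted p of 0.443, 0.443, 0.319 and 0.261. Without replicate 5 of 5-FU+ICB, Acta2 was at 0.21 (SE 0.40, edgeR adjusted p = 0.938) and Tagln at 0.32 (SE 0.54, edgeR adjusted p = 0.923). Tgfb1 stood at 0.01 (SE 0.21, edgeR adjusted p = 0.993) in the same comparison.

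The test of whether 5-FU and ICB together differed from the sum of their separate log2 changes called none of the 10 (0.0893% of all genes), and the same test for cisplatin called none (0% of all genes). Tgfb1 had -0.56 (SE 0.30, edgeR adjusted p = 0.261) with 5-FU and -0.53 (SE 0.57, edgeR adjusted p = 0.709) with cisplatin. Without replicate 1 of Cisplatin+ICB, the value with cisplatin was -0.25 (SE 0.30, edgeR adjusted p = 0.895). Acta2 had 0.25 (SE 0.79, edgeR adjusted p = 0.877) with 5-FU, and -0.74 (SE 0.58, edgeR adjusted p = 0.407) without replicate 5 of 5-FU+ICB. Tagln turned likewise, from 0.39 (SE 0.97, edgeR adjusted p = 0.837) to -0.75 (SE 0.77, edgeR adjusted p = 0.534). Unadjusted, 4283 genes passed 0.05 in the first test and 1273 in the second, and DESeq2 called 1494 and 1.

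Between the chemotherapies, no member was called for 5-FU against Cisplatin (0.362% of all genes), where 2876 genes had an unadjusted p under 0.05 and DESeq2 called 668. Acta2 and Tgfb1 were higher in every 5-FU tumor than in every Cisplatin tumor, with log2 fold changes of 1.20 (SE 0.52, edgeR adjusted p = 0.27) and 0.66 (SE 0.36, edgeR adjusted p = 0.374), where 5.29% of all genes were higher without overlap. Tgfb2 gave 1.32 (SE 0.52, edgeR adjusted p = 0.223) and Postn 0.99 (SE 0.40, edgeR adjusted p = 0.234). Between the combinations, 0 of 10 were called by edgeR (0.297% of all genes) and 2 by DESeq2 (7.51% of all genes). At an unadjusted p under 0.05 edgeR found 4754 genes. Acta2 was 1.87 (SE 0.49) higher on the log2 scale in 5-FU+ICB than in Cisplatin+ICB (edgeR adjusted p = 0.0633, DESeq2 adjusted p = 0.00997), and Tagln 1.79 (SE 0.59, edgeR adjusted p = 0.089, DESeq2 adjusted p = 0.0376). Both rested largely on replicate 5 of 5-FU+ICB, without which they were 0.90 (SE 0.37, edgeR adjusted p = 0.266) and 0.67 (SE 0.48, edgeR adjusted p = 0.451). Cisplatin alone left the 10 genes close to PBS. Their log2 fold changes ran from -0.44 for Lrrc15 to 0.26 for Tgfb2, each with an edgeR adjusted p of 1. Over all genes this comparison had 0 calls by edgeR, 317 genes at an unadjusted p under 0.05, and 4 calls by DESeq2.

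In the order of group means of log2 CPM, 5-FU was highest for Fap, Postn, Lrrc15, Pdgfra, Pdgfrb and Tgfb3, and 5-FU+ICB was highest for Acta2, Tagln, Tgfb1 and Tgfb2. For Tgfb2 that place rested on replicate 5 of 5-FU+ICB, without which the group stood at -0.10 (SE 0.44, edgeR adjusted p = 0.966) against 5-FU on the log2 scale. PBS was lowest for Fap, Tagln and Tgfb2, Cisplatin for Acta2 and Tgfb1, ICB for Postn, and Cisplatin+ICB for Pdgfra, Pdgfrb, Lrrc15 and Tgfb3. For Pdgfra, Pdgfrb and Tgfb3 that place rested on replicate 1 of Cisplatin+ICB. Without it Tgfb3 stood 0.08 (SE 0.14, edgeR adjusted p = 0.856) above ICB on the log2 scale. The Pdgfra and Pdgfrb log2 fold changes of the group against PBS were then 0.56 (SE 0.28, edgeR adjusted p = 0.117) and 0.04 (SE 0.33, edgeR adjusted p = 0.941). The Tgfb3 order ran 5-FU, Cisplatin, PBS, 5-FU+ICB, ICB, Cisplatin+ICB, from 5.82 to 4.69 log2 CPM, so that the 3 groups without ICB stood above the 3 with it. With all tumors in, Acta2 and Tgfb1 had the order 5-FU+ICB, ICB, 5-FU, Cisplatin+ICB, PBS, Cisplatin, but for Tgfb1 the place of Cisplatin+ICB below 5-FU rested on replicate 1. No neighbors in any of these orders differed by the edgeR test in the fit of all 28 tumors, the lowest adjusted p being 0.0723, for Tgfb3 between PBS and 5-FU+ICB.

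Within groups, the 10 genes fell into a few that varied together. The correlations here are of log2 CPM minus the group mean over 28 tumors, which share scaling, library preparation and tumor make-up, and they are descriptions. Acta2 and Tagln had Pearson's r = 0.91 and Spearman's rho = 0.87, and r = 0.93 over 26 tumors without the 2 that stood apart. Postn and Lrrc15 had r = 0.90, and 0.91 over 26 tumors. Postn and Tgfb2 had r = 0.81, and 0.87 over 26 tumors, and Fap and Tgfb2 moved from 0.53 to 0.83. Pdgfra, Pdgfrb and Tgfb1, in contrast, were less closely correlated without those 2 tumors. Pdgfrb and Tgfb1 went from r = 0.88 to 0.59, Pdgfra and Tgfb1 from 0.84 to 0.58, and Pdgfra and Pdgfrb from 0.83 to 0.62 over the 26 tumors. Tgfb3 ran against Tagln, with r = -0.57 over 28 and -0.58 over 26 tumors, and against Tgfb1 it went from 0.53 to -0.03.

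**Figure D4:**
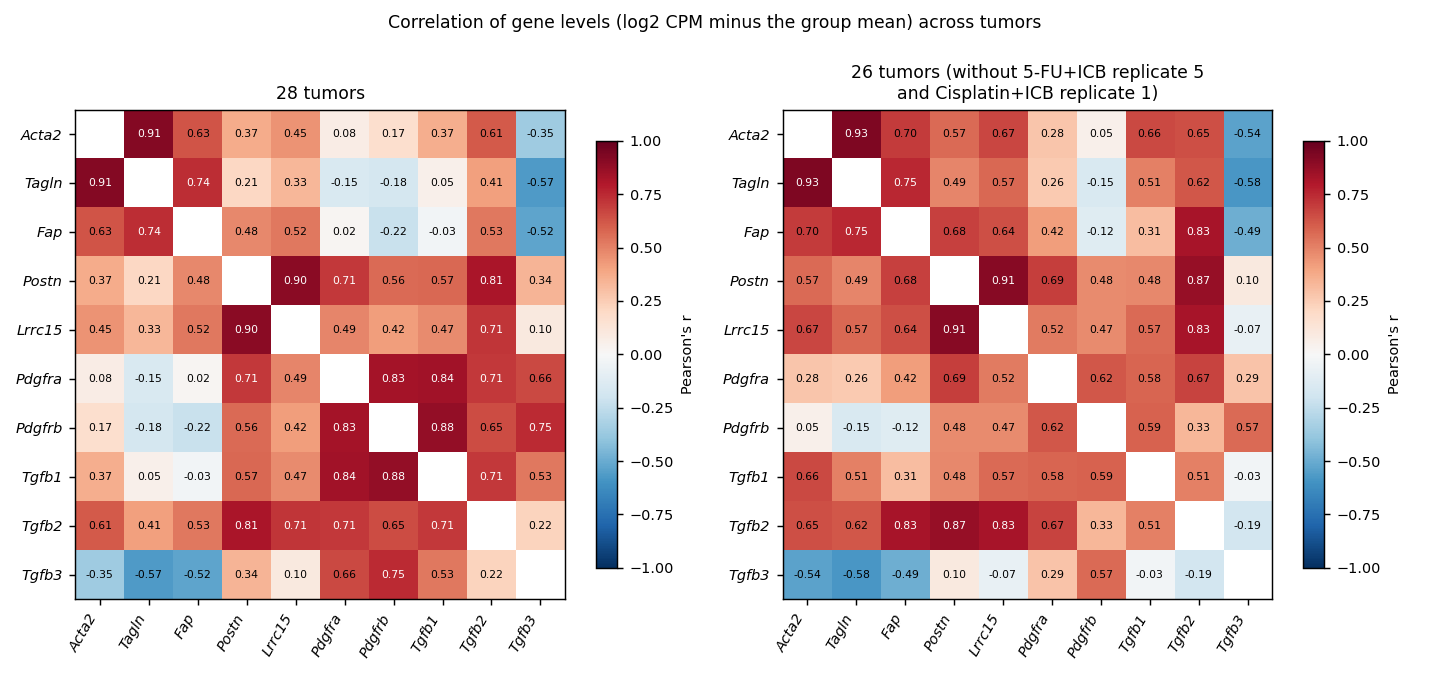
Pearson's r between each pair of the 10 genes, for log2 CPM minus the group mean, over 28 tumors (left) and over 26 tumors without the 2 that stand apart (right), with red for positive and blue for negative values. Acta2 with Tagln (0.91 and 0.93) and Postn with Lrrc15 (0.90 and 0.91) are high in both panels, and Pdgfrb with Tgfb1 falls from 0.88 to 0.59.

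Over 13334 genes with a mean of at least 50 counts, the gene most like a member by this measure was often another member. Acta2 and Tagln were each other's nearest, as were Postn and Lrrc15. After Lrrc15, Postn was most like the matrix genes Ccdc80 (r = 0.89) and Adamts2 (r = 0.88). Pdgfra was most like Fgfr1 (r = 0.95), a fibroblast growth factor receptor, and Lama2 (r = 0.93), a laminin chain, which stood at 0.85 each over the 26 tumors. Pdgfrb was nearest to Kdm5b (0.98 and 0.95 over 26 tumors), Tgfb1 to Diaph1 (0.98 and 0.96), Tgfb2 to Lrp3 (0.96 and 0.94), Tgfb3 to Hic1 (0.94 and 0.93) and Fap to C1qtnf2 (0.90 and 0.90). These are the highest of many genes, so the values are high by choice.

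Levels of other cell types' markers moved with several of the 10. Acta2 and the pericyte sum had r = 0.91 over 28 tumors and 0.83 over 26. Tgfb1 went with the endothelial sum (0.80 and 0.89) and with the summed TGF-beta receptors (0.94 and 0.86), but less with the leukocyte sum (0.04 and 0.46) within groups. Tgfb2 went with the endothelial sum (0.80 and 0.66) and the skeletal muscle sum (0.76 and 0.77), and Tgfb3 ran against the leukocyte sum (-0.57 and -0.54). The skeletal muscle sum also went with Postn (0.71 and 0.78), Lrrc15 (0.71 and 0.76) and Fap (0.68 and 0.75). Acta2 also went with the endothelial sum (0.77 and 0.79). The leukocyte sum went with Tagln (0.74 and 0.77), Fap (0.68 and 0.65) and Acta2 (0.59 and 0.66). The mesothelial sum ran against most of the 10, among them Tgfb1 (-0.76 and -0.73), Tgfb2 (-0.73 and -0.73), Pdgfra (-0.75 and -0.63), Acta2 (-0.47 and -0.80) and Tagln (-0.32 and -0.80), and for Tgfb3 it was -0.15 and 0.33. All of these have group means removed. Between groups, leukocyte markers summed to 1701 to 4572 CPM in PBS tumors, 4643 to 13980.5 CPM with ICB, 1441 to 10307 CPM with 5-FU+ICB and 2444 to 9564 CPM with Cisplatin+ICB, and all 6 rose with ICB, by a median log2 fold change of 1.99. Of the 6, 2 rose with 5-FU, 3 with 5-FU+ICB and 3 with Cisplatin+ICB, where 37.8% (ICB), 23%, 40.7% and 6.1% of all genes were called. With 5-FU they summed to 1761 to 8832 CPM and with Cisplatin to 1616 to 3695 CPM. Msln, the mesothelial marker well above 0 in 27 tumors, was 52.0 to 217 CPM with ICB, 45.0 to 177 CPM with 5-FU and 212 to 308 CPM with Cisplatin. It fell with 5-FU+ICB by 2.28 on the log2 scale (SE 0.77, edgeR adjusted p = 0.0238), and was the 1 of 5 tested mesothelial markers called lower there. Wt1 and Krt19, both low in PBS tumors, were called higher, and the median of the 5 was 1.66 on the log2 scale. With ICB, 5-FU and Cisplatin+ICB, 1 of the 5 was called higher and 0 lower, with medians of 1.02, 0.88 and 1.02. The part of these cell types in the changes of the 10 genes was not tested.

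**Figure D5:**
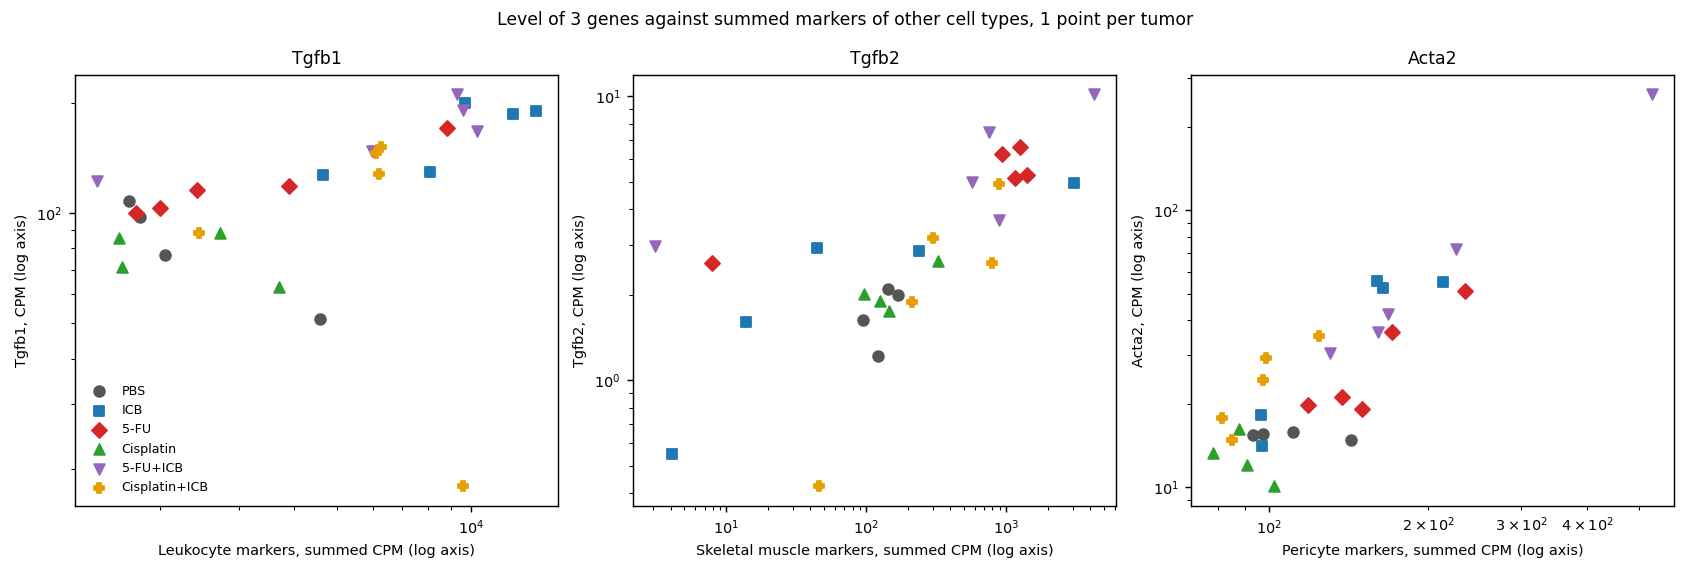
CPM of Tgfb1, Tgfb2 and Acta2 (vertical axes, log scale) against the summed CPM of leukocyte, skeletal muscle and pericyte markers (horizontal axes, log scale), 1 point per tumor, with the treatment as color and shape. Replicate 5 of 5-FU+ICB is the top right point for Tgfb2 (10.2 CPM) and Acta2 (263 CPM), and replicate 1 of Cisplatin+ICB is the lowest point for Tgfb1 (18 CPM).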

How the data were processed

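The authors sequenced whole-tumor RNA (single-end reads, bcl2fastq 2.20.0.422) and, per the labels, quantified it on GRCm38 with kallisto 0.46.0. They deposited 2 tables of estimated counts per gene, in which 23.7% of values are not whole, and the PBS and ICB tumors are in both with identical values. The estimated counts were rounded and tested with edgeR 4.0.16 in R 4.3.3 (TMM scaling, filterByExpr, quasi-likelihood F-test, Benjamini-Hochberg over 17916, 17819 or, with both tables joined, 18521 genes), with all groups of a table in one fit. The joined fit served comparisons across tables and levels. DESeq2 1.42.0, other filters and scalings, a replicate block and leaving out each tumor were alternatives. The edgeR step was tested on simulated data. The 10 genes and all companion lists were chosen with earlier results of these data known. Companion genes were named by a rule of up to 3 called genes per list and comparison with the largest changes, and a few others chosen after their values were seen. The values of 1 listed gene are not reported here. Gene positions are from GENCODE M21. Ages and doses come from the labels and methods. Each tumor came from a different mouse, so p-values measure the spread between animals. No pair of tumors in a group differed by less than sampling noise. In both tables, 26 gene names look like dates.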

Additional observations from a re-analysis of the deposited data

Results flagged for a closer look

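Within groups of 4 or 5 tumors, 60 checks by Dixon's criterion marked 5 values as far from the rest, where chance gives about 1 in 20. Replicate 1 of Cisplatin+ICB was the lowest of its group for Pdgfra at 4.23 log2 CPM (median of the other tumors 7.22), for Pdgfrb at 2.26 (6.04) and for Tgfb1 at 4.17 (7.09). This is the tumor with 35 CPM of summed endothelial markers and 654 CPM of Msln. Replicate 2 of 5-FU was the lowest of its group for Tgfb2 at 1.41 log2 CPM (2.53), and it had 7.94 CPM of summed skeletal muscle markers, the lowest of the 5-FU tumors. Replicate 2 of PBS was the highest of its group for Fap at 2.70 log2 CPM (1.95). Replicate 5 of 5-FU+ICB, the highest tumor for Acta2 and Tagln, was not marked by this criterion.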

How the results depend on the processing

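The counts of the 10 genes called are the values most open to the processing. DESeq2 in place of edgeR called 1 for 5-FU+ICB against 5-FU, 1 for Cisplatin+ICB against Cisplatin and 2 for 5-FU+ICB against Cisplatin+ICB, in place of 0. For Cisplatin+ICB against PBS the single call, Tgfb3, was lost (0 called) with DESeq2 size factors, with no filter, with a minimum of 10 counts, with the replicate block and with the compared groups alone (adjusted p 0.0526 to 0.192). Compared groups alone gave 4 for ICB against PBS (Acta2 and Tagln were added) and 1 for 5-FU against Cisplatin (Tgfb2), and all 6 groups joined gave 0 for 5-FU against PBS. With the replicate block, 1 gene was called for 5-FU against PBS and 2 across the 6 groups. Tumors of the same number in different groups did not vary together (median r -0.02, lowest -0.63, over 66 pairs), so the numbers were not taken to pair tumors. Leaving out each tumor gave 0 to 4 calls for 5-FU against PBS (0 without PBS replicate 1 or 2 or 5-FU replicate 5, 4 without PBS replicate 3), 0 to 2 for 5-FU+ICB against 5-FU (2 without 5-FU+ICB replicate 2, 1 without 5-FU replicate 3), 0 to 2 for Cisplatin+ICB against PBS (2 without Cisplatin+ICB replicate 1, and 0 without PBS replicate 1, 3 or 4 or Cisplatin+ICB replicate 2, 4 or 5) and 0 to 2 for Cisplatin+ICB against Cisplatin (2 without Cisplatin+ICB replicate 1, 1 without replicate 3). It gave 0 to 2 for 5-FU+ICB against Cisplatin+ICB (2 without 5-FU+ICB replicate 2, 1 without its replicate 4 or Cisplatin+ICB replicate 5) and 2 to 7 across the 6 groups (2 without 5-FU+ICB replicate 5, 3 without PBS replicate 1 or 2 or 5-FU+ICB replicate 1). The cause was not tested. Tgfb1 and Tgfb3 with ICB, and Acta2, Tagln, Tgfb1 and Tgfb2 with 5-FU+ICB, kept direction and call under all 17 alternatives each. Their log2 fold changes ranged from 0.88 to 1.15, -0.77 to -0.59, 1.57 to 2.78, 1.66 to 3.07, 0.89 to 1.15 and 1.49 to 1.97. None of the called results changed direction. Leaving out replicate 5 of 5-FU+ICB or replicate 1 of Cisplatin+ICB was singled out after seeing the data. Groups of 4 or 5 tumors and Tgfb2 levels near 2 CPM limit the precision.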
